A study of Phyllostachys violascens with 16 samples.

Results

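The comparison is the last and longest step of a cold storage course of spring shoots, the edible young stems of Lei bamboo (Phyllostachys violascens). Shoots stored for 20 days (20d) were set against shoots stored for 6 days (6d), 4 libraries against 4, so 8 of the series' 16 libraries carry it. The members are all genes in the table, chosen by no measured value: of 50936 genes, 24944 were tested, those that averaged 1 FPKM or more across the 16 libraries. FPKM is the fragment count of a gene scaled by its length and by the size of the library, so that levels can be compared between genes. Both groups were Lei bamboo spring shoots, 30 to 40 cm tall when stored, in polyethylene bags at 4 °C and a humidity of 60 to 70%. Each repeat held 30 shoots, and each library pooled the middle piece, about 10 cm, of 6 of them, so that differences between single shoots are averaged out. The libraries at 2 days (2d) and 0 days (0d), 4 each, entered the fit and are named where a gene's earlier level is given. The labels do not state the light during storage. No shoots were kept at another temperature, so cold, packing and time since harvest cannot be told apart.

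A cut bamboo shoot lives on its own sugars and proteins. In the field its middle part is a stack of young internodes in which cells divide, elongate and then thicken and lignify their walls, and in storage the toughening of edible shoots comes from continued wall thickening and lignin deposition. Starved plant tissue in general takes apart ribosomes, plastids and storage proteins through the proteasome, autophagy and vacuolar proteases, and reloads the nitrogen into glutamine and asparagine. The results follow these roles in turn.

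The libraries were alike in size and close to each other within a time. The total deposited count of a library was between 51.7 M and 63.8 M at 20d, and it was between 51.9 M and 64.1 M at 6d. About 4 counts were taken as 1 fragment. A library held 22723 to 22786 genes with an FPKM of at least 1 at 20d, and 23236 to 23445 at 6d. Over 10752 tested genes that averaged 10 FPKM or more, the median coefficient of variation between replicates was 3.81% at 20d and 4.13% at 6d. Replicate 4 of 6d lay a little apart from the other 3. Between it and each of them the mean chi-square per gene, where 1 would be counting noise alone, was 2.03 to 2.41, against 1.501 to 1.83 for the other pairs within a time. As a check of the labelled tissue, 15 knotted1-like homeobox genes, a family with members of shoot meristems and members of differentiated tissue, summed to 397 to 404 FPKM per library at 20d and 406 to 413 FPKM at 6d. A knotted-1-like 13 gene (PH02Gene46847) held 168 ± 2.70 FPKM of this at 20d and 168 ± 3.57 FPKM at 6d, so the sum does not mark meristem cells alone. Of 3 phloem markers 0 reached the limit for testing. Among genes named for other organs, 12 genes described as pollen-specific, SF21 and C13 proteins among them, summed to 99.7 to 106 FPKM at 20d and 141 to 146 FPKM at 6d. The sum of 8 seed storage protein genes was 60.6 to 66.5 FPKM at 20d and 81.7 to 86.4 FPKM at 6d. That of 2 cortical cell-delineating genes, the family of root RCc3, was 0.353 to 0.704 FPKM per library at 20d and 0.490 to 1.12 FPKM at 6d. Of 4 pollen allergen genes 0 reached the limit for testing. Their part in the results below was not tested. In pooled tissue, fewer cells of a type and less RNA per cell cannot be told apart.

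A gene was called when its Benjamini-Hochberg adjusted p in edgeR's quasi-likelihood test was below 0.05 and its log2 change, 20d minus 6d, was at least 1 in size. By that rule 6708 genes, 26.9% of those tested, changed between 6d and 20d: 3163 (12.7%) rose and 3545 (14.2%) fell. The order of these counts depended on the limit for testing. Among the 23516 genes that averaged 1 FPKM or more over the 6d and 20d libraries, 3021 rose and 2948 fell. The median log2 change over all genes tested was -0.0014. Among the 24944 genes tested, large changes were more often falls: 908 genes rose and 1318 fell by at least 2 on the log2 scale, and 65 rose and 196 fell by at least 5. Large changes were not counted under the limit set on 6d and 20d. By p alone, 19164 genes had an adjusted p below 0.05 whatever the size, and 73.0% of the genes tested had no overlap between the 20d and the 6d libraries. With the size limit, the shares called, 12.7% higher and 14.2% lower, are the background against which each list below is read. Errors after a ± are SD over n = 4 libraries per time, SE belongs to a log2 change, and gene names are descriptions of best database hits in the deposited table. Of the 52 lists drawn up from words in those descriptions, the plot of members called per list shows photosynthesis, ribosomal and histone genes at one end and laccases and amino acid transporters at the other.

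**Figure D1:**
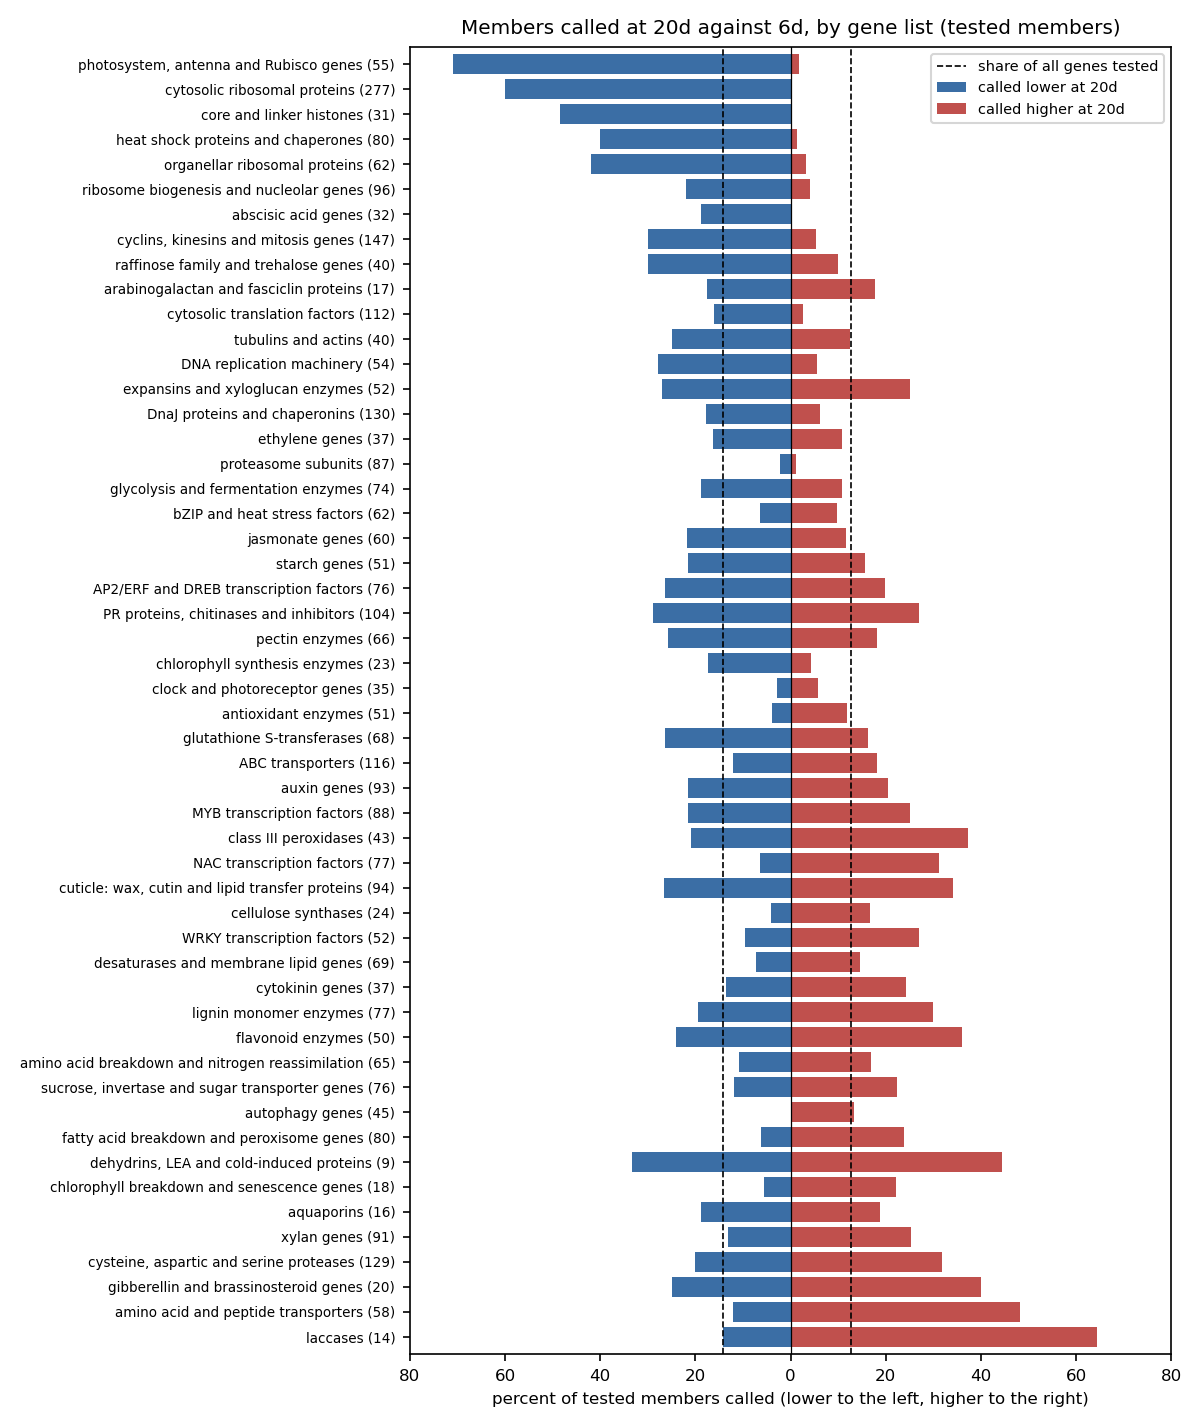
Percent of the tested members of each gene list that were called lower (bars to the left) or higher (bars to the right) at 20d against 6d, with the number tested in parentheses and lists ordered by median log2 change. Dashed lines mark the shares over all genes tested, 14.2% lower and 12.7% higher; photosystem genes reach 70.9% lower and laccases 64.3% higher.

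Ribosomal protein genes fell in large number. Of 277 tested genes for cytosolic ribosomal proteins, the structural parts of the ribosome, 166 (59.9%) fell and 1 rose, with a median log2 change of -1.30. Their summed level was 3500.2 to 3639.8 FPKM per library at 20d and 11079 to 11426 FPKM at 6d, so the 20d libraries lay far below the 6d ones without overlap. Their earlier sums averaged 17543.5 FPKM at 0d and 16977 FPKM at 2d, so the sum was already lower at 6d. PH02Gene42751, a 40S ribosomal protein S8-like gene on scaffold 24, had 21.3, 23.8, 22.6 and 23.6 FPKM at 20d, against 309.9, 299, 305 and 299 FPKM at 6d. The fall was log2 change -3.59, SE 0.03, adjusted p 6.8e-31, with no overlap and little spread at either time. PH02Gene29817, a 60S L5-1 gene and the ribosomal protein gene with the highest mean level, had 66.5, 61.8, 66.4 and 64.8 FPKM at 20d, against 375, 368, 371 and 372 FPKM at 6d, a fall with log2 change -2.38, SE 0.02. How fragments were split among near-identical copies of these genes is uncertain. The summed level can shift with that split where copies differ in length or where a copy was not tested. The exception, named after its values were seen, was PH02Gene06519, an L28-1-like gene, with 86.6 ± 2.33 FPKM at 20d and 19.4 ± 2.95 FPKM at 6d (log2 change 2.29, SE 0.07).

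Most genes that help assemble ribosomes were not called. Of 96 genes for ribosome biogenesis and the nucleolus, 21 (21.9%) fell and 4 rose, with a median log2 change of -0.43. The 2 members with the smallest adjusted p both encode pescadillo, a nucleolar factor for the large subunit. PH02Gene18255 had 26.1 ± 0.583 FPKM at 20d and 125 ± 3.48 FPKM at 6d (log2 change -2.13, SE 0.03). PH02Gene33722 had 15.9 ± 0.656 FPKM at 20d and 67.2 ± 1.62 FPKM at 6d (log2 change -1.94, SE 0.03). PH02Gene17221, an FCF1 rRNA-processing factor with the highest level in the list, stood at 51.2 ± 1.72 FPKM at 20d and 109 ± 5.01 FPKM at 6d and missed the limit on size (log2 change -0.95, SE 0.05). The 4 that rose, named after their values were seen, were a nucleolar GTPase 2 (PH02Gene27407, log2 change 2.33, SE 0.15), a Nop10p-like gene (PH02Gene18683, log2 change 1.12, SE 0.15), a nucleolin 2 (PH02Gene01818, log2 change 1.61, SE 0.29) and an IMP3 (PH02Gene00410, log2 change 1.12, SE 0.48). The call on IMP3 was lost when any of 5 single libraries was left out, with log2 changes down to 0.72 without 20d replicate 2, and Nop10p-like was at 0.95 without 6d replicate 2.

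Translation factors, which carry the ribosome through its cycle, were closer to the background. Among 112 of them 18 (16.1%) fell and 3 rose, and the median was -0.27. The falls of smallest adjusted p were in elongation factor 1-delta genes. PH02Gene10582 had 4.66 ± 0.133 FPKM at 20d and 36.6 ± 0.529 FPKM at 6d (log2 change -2.83, SE 0.05). PH02Gene20184 had 42.3 ± 2.03 FPKM at 20d and 109 ± 1.67 FPKM at 6d (log2 change -1.23, SE 0.03). Initiation factor 5 (PH02Gene15165), the highest in the list, was at 188 ± 3.08 FPKM at 20d and 182 ± 2.07 FPKM at 6d and was not called. The 3 that rose, chosen after their values were seen, were eIF5A (PH02Gene43563, log2 change 1.19, SE 0.03), an eIF2 beta (PH02Gene15026, log2 change 1.56, SE 0.17) and an eIF1A (PH02Gene40362, log2 change 1.63, SE 0.21). In chloroplasts and mitochondria, 26 of 62 ribosomal protein genes (41.9%) fell and 2 rose, with a median of -0.74. Plastid L1 (PH02Gene16107) had 8.99 ± 0.917 FPKM at 20d and 35.9 ± 1.92 FPKM at 6d (log2 change -1.86, SE 0.06). Mitochondrial L21 (PH02Gene01397) had 0.888 ± 0.119 FPKM at 20d and 7.83 ± 0.471 FPKM at 6d (log2 change -2.98, SE 0.10). The highest member, plastid S13 (PH02Gene29986), was instead at 95.6 ± 1.84 FPKM at 20d and 54.1 ± 2.66 FPKM at 6d, just short of a call (log2 change 0.96, SE 0.06). The 2 that rose were low plastid genes, L34 (PH02Gene04536, 4.05 ± 0.395 FPKM at 20d and 1.17 ± 0.146 FPKM at 6d) and L18 (PH02Gene33184, 2.40 ± 0.605 FPKM at 20d and 0.692 ± 0.155 FPKM at 6d), named after their values were seen. The call on L18 was lost when any library but 20d replicate 3 was left out, with log2 changes of 1.82 to 2.04.

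**Figure D2:**
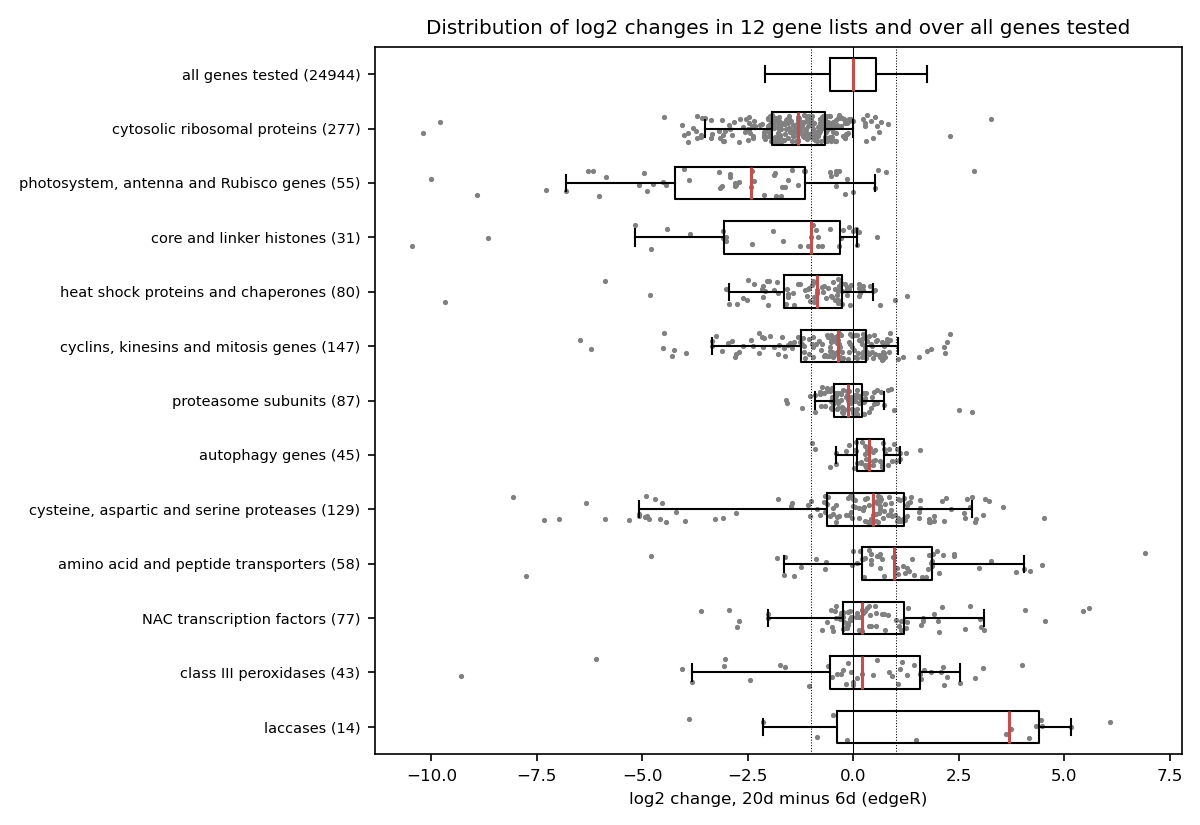
Log2 change, 20d minus 6d, of each tested member (grey points) of 12 lists and of all 24944 genes tested (box only). Boxes span the quartiles, the red line is the median and whiskers reach the 5th and 95th percentiles; medians run from -2.44 for photosystem genes to 3.68 for laccases, beside -0.0014 for all genes.

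Photosynthesis genes were low in these shoots and fell further. Of 55 tested genes for photosystems, antennae and Rubisco, 39 (70.9%) fell and 1 rose, with a median log2 change of -2.44, and their summed level was 238 to 267 FPKM per library at 20d and 601 to 625 FPKM at 6d. PH02Gene44479, a Rubisco small subunit gene, part of the enzyme that fixes carbon dioxide, had 29.6, 28.4, 29.2 and 31.4 FPKM at 20d, against 119, 113, 112 and 123 FPKM at 6d (log2 change -1.84, SE 0.04, adjusted p 9.7e-23). PH02Gene49304, for the oxygen-evolving enhancer protein 1 of photosystem II, had 3.08, 3.57, 3.42 and 2.78 FPKM at 20d, against 29.9, 34.2, 31.8 and 33.1 FPKM at 6d (log2 change -3.18, SE 0.07, adjusted p 3.8e-23). Neither gene's libraries overlapped between the times. The highest member was PH02Gene36977, for the antenna-like protein OHP1, at 166 ± 15.5 FPKM at 20d and 264 ± 14.3 FPKM at 6d, which was not called (log2 change -0.53, SE 0.08). The 1 that rose, named after its values were seen, was an LHCII type 1 gene at a very low level (PH02Gene34137, 1.45 ± 0.271 FPKM at 20d and 0.218 ± 0.0598 FPKM at 6d). Many members passed the limit for testing through their level at 0d: among genes that averaged 1 FPKM or more over the 6d and 20d libraries, 16 falls were called. That limit tests another set of members, whose number was not counted, so the 16 is not a share of the 55. A test by limma on log2(FPKM + 5), which damps low genes, called 6.

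Chlorophyll genes moved in both directions along the pathway. Among 23 genes of chlorophyll synthesis 4 fell and 1 rose, a share near the background, with a median of 0.05. The falls included a subunit H of magnesium chelatase, the first enzyme committed to chlorophyll (PH02Gene25454, 3.12 ± 0.135 FPKM at 20d and 18.2 ± 0.406 FPKM at 6d, log2 change -2.40, SE 0.04), and protochlorophyllide reductase B, its light-dependent step (PH02Gene14847, 0.853 ± 0.148 FPKM at 20d and 9.88 ± 0.481 FPKM at 6d, log2 change -3.39, SE 0.12). The others, named after their values were seen, were a chelatase subunit D (PH02Gene29183, log2 change -1.34, SE 0.09) and a geranylgeranyl reductase (PH02Gene42150, log2 change -1.70, SE 0.24), while a second subunit H gene rose (PH02Gene24514, 9.44 ± 0.458 FPKM at 20d and 4.95 ± 0.255 FPKM at 6d). The highest member, 5-aminolevulinate dehydratase (PH02Gene29766), was at 70.8 ± 3.001 FPKM at 20d and 52.3 ± 1.26 FPKM at 6d and was not called.

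Of 18 genes named for chlorophyll breakdown and senescence, 4 rose and 1 fell, with a median of 0.40. A stay-green gene, whose product in rice strips magnesium from chlorophyll, had the smallest adjusted p of the list. PH02Gene05142 had 98.2, 97.2, 96.6 and 97.7 FPKM at 20d, against 13.5, 14.4, 15.6 and 16.1 FPKM at 6d (log2 change 2.85, SE 0.06, adjusted p 2.7e-19). All 4 libraries at 20d lay above every library at 6d by several fold. A second stay-green gene (PH02Gene50737, 2.97 ± 0.669 FPKM at 20d and 1.04 ± 0.302 FPKM at 6d) and a pheophytinase, the next enzyme of the breakdown path (PH02Gene22037, 3.52 ± 0.318 FPKM at 20d and 1.35 ± 0.155 FPKM at 6d), also rose, and both are named after their values were seen. The senescence-associated protein DH gene (PH02Gene19014) had 78.7 ± 1.90 FPKM at 20d and 40.9 ± 1.64 FPKM at 6d (log2 change 1.08, SE 0.05). The member that fell, and the highest of the list, was a SENESCENCE-ASSOCIATED GENE 21 (PH02Gene40131), at 191 ± 17.9 FPKM at 20d and 458 ± 18.8 FPKM at 6d (log2 change -1.13, SE 0.10).

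Among genes that accompany cell division, falls outnumbered rises. Of 31 core and linker histone genes, whose products package new DNA, 15 (48.4%) fell and 0 rose, with a median log2 change of -0.997 and a summed level of 623 to 652 FPKM per library at 20d and 1179.5 to 1242 FPKM at 6d. An H2B gene, PH02Gene04976, had 14.4, 15.1, 15.5 and 16.6 FPKM at 20d, against 89.5, 90.8, 92.4 and 85.9 FPKM at 6d (log2 change -2.40, SE 0.09, adjusted p 4.2e-18), and the highest member, the H2B.2-like PH02Gene44357, had 71.0 ± 4.87 FPKM at 20d and 248 ± 7.51 FPKM at 6d (log2 change -1.67, SE 0.05). The histone sum had averaged 723 FPKM at 0d and 610 FPKM at 2d, so of the 4 times it was highest at 6d. Among genes that averaged 5 FPKM or more over the 16 libraries, 6 histone falls were called. Histone genes share long stretches of sequence, so the split of fragments among copies is uncertain. Of 147 cyclin, kinesin and mitosis genes, 44 (29.9%) fell and 8 rose, with a median of -0.37. The members with the smallest adjusted p were among the 8 that rose: an anaphase-promoting complex subunit 8 (PH02Gene38791) had 31.2 ± 1.05 FPKM at 20d and 7.02 ± 0.322 FPKM at 6d (log2 change 2.29, SE 0.05). A microtubule-associated protein of 65 kDa (PH02Gene22090) had 28.6 ± 0.379 FPKM at 20d and 9.44 ± 0.557 FPKM at 6d (log2 change 1.74, SE 0.04). The highest member, kinesin KIN-13A (PH02Gene25300), stood at 53.1 ± 1.03 FPKM at 20d and 42.8 ± 1.03 FPKM at 6d and was not called.

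Of 19 A, B and D cyclins within that list, 9 fell and 1 rose, a D5-3 cyclin (PH02Gene11900, 18.6 ± 0.393 FPKM at 20d and 9.13 ± 0.282 FPKM at 6d) named after its values were seen, and they summed to 100.01 to 104 FPKM per library at 20d and 144 to 152 FPKM at 6d. The sum of these cyclins had averaged 91.7 FPKM at 0d and 130 FPKM at 2d. Among 54 genes of the DNA replication machinery 15 (27.8%) fell and 3 rose, with a median of -0.25. Examples were a 70 kDa subunit of replication protein A, which coats single-stranded DNA (PH02Gene25877, 1.37 ± 0.118 FPKM at 20d and 6.93 ± 0.403 FPKM at 6d, log2 change -2.20, SE 0.12), and DNA ligase 1 (PH02Gene11594, 1.09 ± 0.109 FPKM at 20d and 4.60 ± 0.410 FPKM at 6d, log2 change -1.93, SE 0.09). The highest member, subunit 2 of DNA polymerase epsilon (PH02Gene03145), was at 33.0 ± 1.30 FPKM at 20d and 33.4 ± 1.26 FPKM at 6d and was not called. The 3 that rose, named after their values were seen, were a replication factor C subunit 3 (PH02Gene36643, log2 change 1.12, SE 0.11) and further replication protein A subunits (PH02Gene47269, log2 change 1.33, SE 0.19, and PH02Gene10036, log2 change 1.29, SE 0.36). Tubulins and actins, the cytoskeleton, showed 10 falls and 5 rises among 40, with a median of -0.26. An alpha-1 tubulin (PH02Gene12444) had 58.7 ± 2.34 FPKM at 20d and 193 ± 5.51 FPKM at 6d (log2 change -1.58, SE 0.03). A beta-4 tubulin (PH02Gene37926) had 1.98 ± 0.149 FPKM at 20d and 7.23 ± 0.0386 FPKM at 6d (log2 change -1.73, SE 0.05). In the other direction an actin 1 gene (PH02Gene24788), chosen after its values were seen, had 46.7 ± 0.240 FPKM at 20d and 6.11 ± 0.288 FPKM at 6d (log2 change 3.07, SE 0.09). The other 4 rises, seen likewise, were 2 alpha-2 tubulins (PH02Gene11745 and PH02Gene36495), a profilin-7 (PH02Gene46045) and a profilin-A (PH02Gene41089), all under 9 FPKM at 20d. The highest member, profilin LP04 (PH02Gene25552), was at 310.0 ± 6.78 FPKM at 20d and 279.5 ± 6.49 FPKM at 6d and was not called.

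Thionins, small cysteine-rich proteins that damage the membranes of microbes, made up 6 of the 12 largest falls among called genes that averaged 5 FPKM or more over both times, had no overlap and had an informative description. All 7 tested thionin genes fell, with a median log2 change of -9.52, and an eighth described gene was too low to test. Together they summed to 11.1 to 15.7 FPKM per library at 20d and 10913 to 11529.7 FPKM at 6d. At 6d they were thus among the most abundant transcripts and at 20d they were nearly gone. Their earlier sums averaged 1082 FPKM at 0d and 4754 FPKM at 2d.

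PH02Gene28214 (scaffold 23, 77667142 to 77667718) had 5.62, 5.07, 4.52 and 3.33 FPKM at 20d, against 3811, 3707, 3723 and 3801 FPKM at 6d, and its fall was log2 change -9.52, SE 0.13, adjusted p 2.0e-16. PH02Gene25370 (77293240 to 77294213 on the same scaffold) had 3.61, 4.75, 4.43 and 2.90 FPKM at 20d, against 3578, 3656, 3688 and 3963 FPKM at 6d (log2 change -9.73, SE 0.09, adjusted p 1.5e-18), and PH02Gene28216 (77648417 to 77648994) had 6.47, 2.63, 5.44 and 4.60 FPKM at 20d, against 2893, 2739.6, 2821 and 2967 FPKM at 6d (log2 change -9.10, SE 0.12, adjusted p 1.0e-16). Over these 3 genes the highest 20d library stood at 6.47 FPKM and the lowest 6d library at 2739.6 FPKM. The other members also fell, from lower levels. PH02Gene39251 had 0, 0.852, 0.738 and 0.276 FPKM at 20d, against 332, 375, 347 and 393 FPKM at 6d (log2 change -9.35, SE 0.21). PH02Gene50531, on scaffold 10, was listed at 0 in every 20d library, against 412, 413, 429 and 384 FPKM in the 6d libraries, which puts it at least 5182-fold lower at 20d with a floor of 3 fragments over the group. PH02Gene28215 was seen in 1 of the 4 libraries at 20d and had 0.0774 ± 0.155 FPKM at 20d and 16.5 ± 0.444 FPKM at 6d, 154-fold lower at 20d with a 95% Clopper-Pearson interval of 36.97 to 1118. PH02Gene28218 was listed at 0 in all 4 at 20d, against 6.42, 5.88, 5.62 and 5.13 FPKM in the 6d libraries. Of the 7 genes, 6 lie on scaffold 23 and 4 of them within a stretch of it from 77606340 to 77667718. They have nearly the same description, so how fragments were shared among copies is uncertain. The sum over them can shift with that sharing, since the copies differ in length. At 6d, 725729 counts made 3721 FPKM in PH02Gene25370, and 372989 counts made 3761 FPKM in PH02Gene28214.

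Defence genes as a whole did not share that fall. The list of pathogenesis-related (PR) proteins, chitinases and inhibitors, which holds the thionins, had 28 rises and 30 falls among 104 genes. Without the thionins its 97 other members had 28 rises and 23 falls, and they summed to 1900.2 to 1943 FPKM per library at 20d and 1437 to 1593 FPKM at 6d. PH02Gene15482, a beta-1,3-glucanase 14 gene, of a family that cuts callose and fungal walls, had 74.4 ± 2.21 FPKM at 20d and 28.9 ± 2.43 FPKM at 6d (log2 change 1.501, SE 0.04). PH02Gene14760, a PR protein, had 1.22 ± 0.151 FPKM at 20d and 22.3 ± 2.10 FPKM at 6d (log2 change -4.04, SE 0.12).

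**Figure D3:**
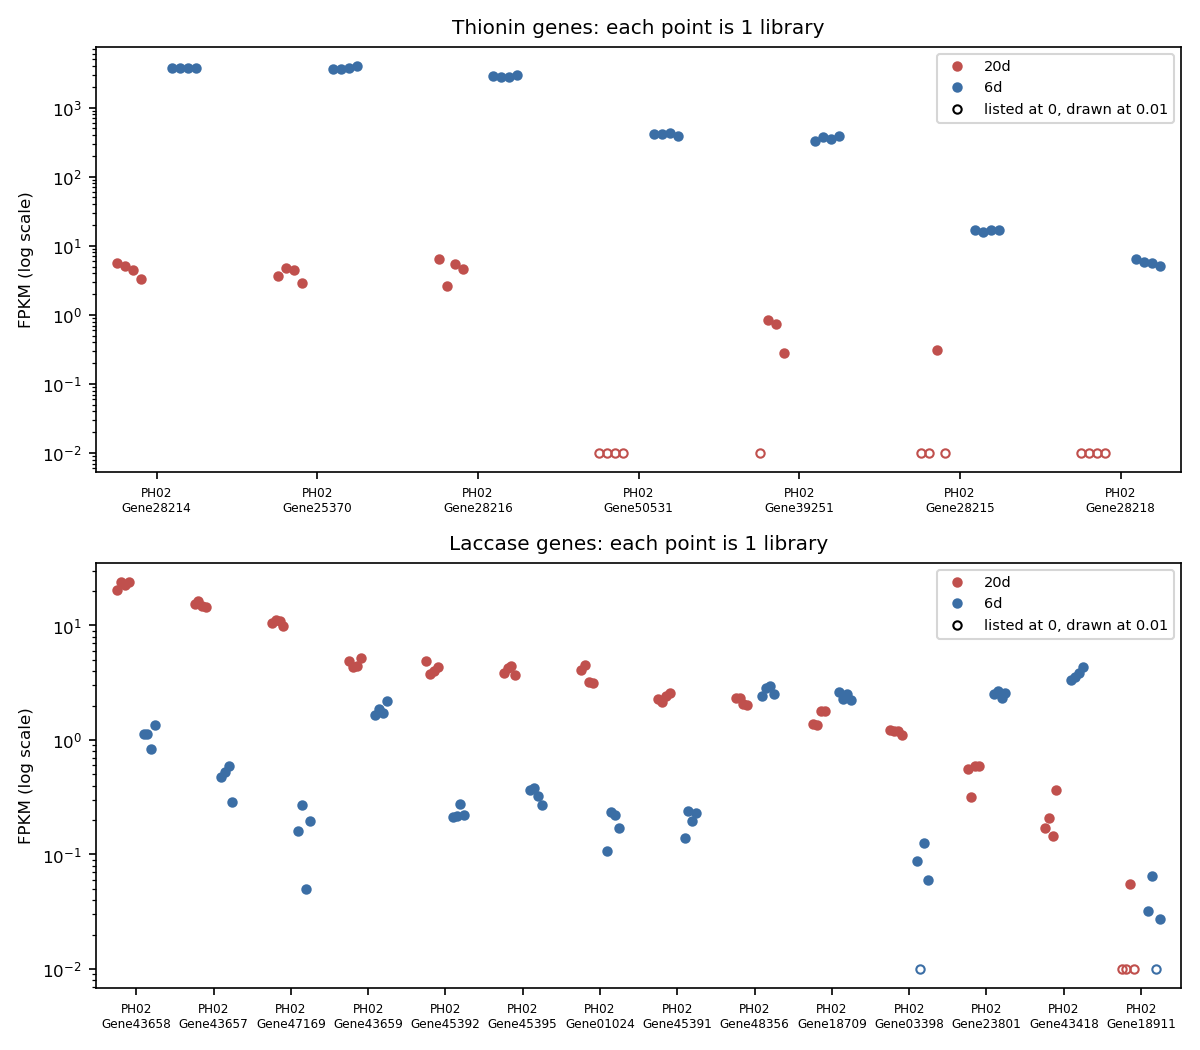
FPKM of each library, on a log scale, for the 7 tested thionin genes (top) and the 14 tested laccase genes (bottom), 20d left of 6d for each gene and open points at 0.01 where a library is listed at 0. Thionins sum to 11.1 to 15.7 FPKM per library at 20d and 10913 to 11529.7 FPKM at 6d; 9 laccases lie higher at 20d and 2 lie lower.

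Few genes of autophagy and the proteasome were called. Of 45 autophagy genes, which wrap cell parts for breakdown in the vacuole, 6 (13.3%) rose and 0 fell, a share near the background of 12.7%, with a median of 0.37. ATG8, the protein that coats the growing autophagosome, was abundant: the highest member, ATG8C (PH02Gene25011), had 1118, 1138, 1149 and 1129 FPKM at 20d, against 625, 630.3, 629 and 667 FPKM at 6d. Its libraries did not overlap between the times, and the change was just short of the limit (log2 change 0.97, SE 0.02, adjusted p 3.2e-22). An ATG8D-like gene (PH02Gene34359) had 55.3 ± 1.09 FPKM at 20d and 30.2 ± 1.19 FPKM at 6d (log2 change 1.01, SE 0.04). The protease gene ATG4B (PH02Gene00288), whose product trims ATG8, had 64.2 ± 0.919 FPKM at 20d and 29.6 ± 1.71 FPKM at 6d (log2 change 1.26, SE 0.05). The call on ATG8D-like rests on the limit of 1: its log2 change was 0.99 without 6d replicate 2, and 5 other changes of scaling, filter or tool outside limma also took the call away. Of 87 proteasome subunits 84 were not called, 1 rose and 2 fell, with a median of -0.12. The called ones were a regulatory subunit 8 (PH02Gene30816, 15.9 ± 0.459 FPKM at 20d and 3.08 ± 0.309 FPKM at 6d), a beta type-3 subunit (PH02Gene04795, 6.20 ± 0.633 FPKM at 20d and 14.03 ± 1.18 FPKM at 6d) and, named after its values were seen, a low alpha type-6 subunit (PH02Gene21890, 0.598 ± 0.0733 FPKM at 20d and 2.02 ± 0.198 FPKM at 6d). Without 6d replicate 3 the beta type-3 subunit was at -0.99 and not called. The highest, subunit S10B (PH02Gene38452), was at 153 ± 1.11 FPKM at 20d and 174 ± 1.75 FPKM at 6d.

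Proteases of the vacuole and wall split. Among 129 cysteine, aspartic and serine proteases 41 (31.8%) rose and 26 (20.2%) fell, both above the background, and the summed level was 9036 to 9122 FPKM per library at 20d and 5006 to 5132 FPKM at 6d. PH02Gene18957, for cathepsin B, a cysteine protease of the vacuole, had 1080.3, 1097, 1076 and 1092 FPKM at 20d, against 417, 395, 399 and 396 FPKM at 6d (log2 change 1.57, SE 0.02, adjusted p 2.6e-27). The highest member, the oryzain alpha gene PH02Gene45588, had 2443, 2486, 2457 and 2491 FPKM at 20d, against 1465, 1411, 1477 and 1535 FPKM at 6d. All 4 libraries at 20d lay above all at 6d, but the change was under the limit (log2 change 0.88, SE 0.02). A subtilisin-like gene went the other way: PH02Gene39294 had 1.40 ± 0.121 FPKM at 20d and 36.7 ± 1.13 FPKM at 6d (log2 change -4.58, SE 0.04).

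Some nitrogen reassimilation genes rose, and so did transporters. Among 65 genes of amino acid breakdown and nitrogen reassimilation 11 (16.9%) rose and 7 (10.8%) fell, with a median of 0.35. Cytosolic glutamine synthetase 1-1, which reloads ammonium released from proteins, had 378, 385, 397 and 389.7 FPKM at 20d, against 155, 152, 150.5 and 158 FPKM at 6d in PH02Gene04855 (log2 change 1.47, SE 0.02, adjusted p 2.2e-26). An asparagine synthetase gene, PH02Gene00063, which makes the main transport form of nitrogen in many plants, had 180.4, 187, 189.6 and 186 FPKM at 20d, against 58.1, 57.2, 59.9 and 59.3 FPKM at 6d (log2 change 1.80, SE 0.03, adjusted p 1.1e-25). The 20d libraries lay above the 6d libraries in both without overlap. The most abundant asparagine synthetase gene, PH02Gene23545, was at 663 ± 3.57 FPKM at 20d and 390.4 ± 14.3 FPKM at 6d and just missed the limit (log2 change 0.90, SE 0.03).

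Of 58 genes described as amino acid or peptide transporters or as WAT1-related proteins, 28 (48.3%) rose and 7 (12.1%) fell, with a median log2 change of 0.95. The WAT1-related proteins are membrane proteins whose first known member affects secondary walls in Arabidopsis, and most are not known to carry amino acids. They made up 14 of the 58, with 10 rises and 1 fall, in PH02Gene34795 (0.732 ± 0.145 FPKM at 20d and 2.16 ± 0.463 FPKM at 6d), named after its values were seen. The 44 others had 18 rises and 6 falls and summed to 902 to 917 FPKM per library at 20d and 532 to 546 FPKM at 6d. PH02Gene35477, an AVT6B vacuolar transporter, had 332, 324, 325 and 322 FPKM at 20d, against 139.7, 147, 143 and 143 FPKM at 6d (log2 change 1.33, SE 0.02, adjusted p 2.9e-24). PH02Gene35120, a WAT1-related gene, had 118 ± 1.39 FPKM at 20d and 13.4 ± 0.720 FPKM at 6d (log2 change 3.27, SE 0.03).

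Fatty acid breakdown and peroxisome genes showed 19 rises (23.8%) and 5 falls (6.25%) among 80, with a median of 0.38. The highest member, peroxisomal 3-ketoacyl-CoA thiolase 2, the last step of each round of beta-oxidation, had 531, 533, 538 and 528 FPKM at 20d, against 292, 287, 283 and 283 FPKM at 6d in PH02Gene05899 (log2 change 1.03, SE 0.02, adjusted p 3.8e-25). Its groups did not overlap, but its change was so near 1 that 2 of the alternatives other than limma took away the call. A peroxisomal carrier of nicotinamide adenine dinucleotide (PH02Gene39787) had 97.4 ± 2.23 FPKM at 20d and 22.1 ± 1.03 FPKM at 6d (log2 change 2.28, SE 0.04). The 5 falls, named after their values were seen, were 4 long chain acyl-CoA synthetases (PH02Gene48345, PH02Gene17725, PH02Gene06395 and PH02Gene25211), which activate fatty acids and also serve wax synthesis, and a peroxisomal membrane protein 11-1 (PH02Gene21574), each under 6 FPKM at 20d.

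Laccases and peroxidases, which join lignin monomers, had more rises than falls at 20d, while the enzymes that make the monomers and the wall polysaccharides moved both ways. Laccases, copper enzymes that oxidise lignin monomers so that they join, had the highest median of the 52 lists: 9 of 14 (64.3%) rose and 2 fell, with a median log2 change of 3.68. Their summed level was 72.0 to 76.0 FPKM per library at 20d and 15.2 to 16.7 FPKM at 6d. PH02Gene43658, a laccase-19-like gene and the highest of the family, had 20.6, 23.8, 22.6 and 23.8 FPKM at 20d, against 1.12, 1.14, 0.842 and 1.36 FPKM at 6d (log2 change 4.48, SE 0.17, adjusted p 1.0e-14). PH02Gene47169, a laccase-23 gene, had 10.5, 11.3, 10.9 and 9.87 FPKM at 20d, against 0.160, 0.270, 0.0495 and 0.197 FPKM at 6d (log2 change 6.09, SE 0.22, adjusted p 3.8e-15). PH02Gene45392, a laccase-20-like gene, had 4.25 ± 0.491 FPKM at 20d and 0.231 ± 0.0302 FPKM at 6d (log2 change 4.32, SE 0.18). PH02Gene45395, of the same name, had 4.07 ± 0.344 FPKM at 20d and 0.335 ± 0.0492 FPKM at 6d (log2 change 3.73, SE 0.17). In each of these the 20d libraries lay above the 6d libraries without overlap, as the plot of thionin and laccase libraries shows. A laccase-20-like gene beside them in level, PH02Gene43657, had 15.3 ± 0.822 FPKM at 20d and 0.472 ± 0.131 FPKM at 6d and is named after its values were seen, as are the 2 that fell, a laccase-22-like gene (PH02Gene23801, 0.515 ± 0.134 FPKM at 20d and 2.52 ± 0.135 FPKM at 6d) and a laccase-25-like gene (PH02Gene43418, 0.223 ± 0.0996 FPKM at 20d and 3.76 ± 0.449 FPKM at 6d). The family is low in absolute terms, and of 59 genes described as laccases 14 reached the limit for testing. Among genes that averaged 5 FPKM or more over the 16 libraries, 1 laccase was called higher.

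Class III peroxidases, which use hydrogen peroxide for the same coupling, showed 16 rises (37.2%) and 9 falls (20.9%) among 43. They summed to 2743 to 2839 FPKM per library at 20d and 1307 to 1527 FPKM at 6d. The cationic peroxidase SPC4-like gene PH02Gene06848, the highest, had 1043, 1069, 1083 and 1046 FPKM at 20d, against 420.4, 399, 424 and 479 FPKM at 6d (log2 change 1.44, SE 0.04, adjusted p 9.8e-14). PH02Gene44535, peroxidase 21-like, had 55.0 ± 0.867 FPKM at 20d and 10.5 ± 0.126 FPKM at 6d (log2 change 2.53, SE 0.03). PH02Gene05420, peroxidase 16, had 336 ± 0.894 FPKM at 20d and 172 ± 9.60 FPKM at 6d (log2 change 1.11, SE 0.03). The shares that rose, 64.3% of laccases and 37.2% of these peroxidases, stood beside 12.7% of all genes tested. Of 195 genes described as such peroxidases, 43 were tested. A gene that passed the limit for testing only through its level at 20d had to be higher at 20d than at 6d. Rises in both lists can thus be in part fixed by the choice of genes tested, and members that passed that way were not counted.

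The enzymes that make the lignin monomers split. Of 77, 23 (29.9%) rose and 15 (19.5%) fell, with a median of 0.27. Their summed level was lower at 20d, 2691 to 2757 FPKM per library at 20d and 2983 to 3162 FPKM at 6d. Ferulate 5-hydroxylases, cytochromes P450 that commit monomers to syringyl units, showed it within 1 family. PH02Gene30639 had 59.6, 59.1, 63.3 and 60.7 FPKM at 20d, against 2.32, 2.51, 2.83 and 2.49 FPKM at 6d (log2 change 4.71, SE 0.08, adjusted p 2.7e-25). PH02Gene30039 had 20.3, 19.6, 20.3 and 18.9 FPKM at 20d, against 0.530, 0.0571, 0.562 and 0.457 FPKM at 6d (log2 change 5.72, SE 0.35, adjusted p 1.7e-09). In both, every 20d library lay above every 6d library. How fragments were split among copies of this family is uncertain. Of 19 tested genes with this name 7 rose and 3 fell, yet their sum was lower at 20d, 626 to 644 FPKM per library at 20d and 1020.2 to 1134 FPKM at 6d. The most abundant of them, PH02Gene08874, had 261 ± 4.05 FPKM at 20d and 616 ± 27.99 FPKM at 6d (log2 change -1.10, SE 0.03). The other 2 that fell, named like it after their values were seen, were PH02Gene49877 (18.1 ± 2.08 FPKM at 20d and 46.4 ± 8.49 FPKM at 6d) and PH02Gene18881 (0.0671 ± 0.0599 FPKM at 20d and 1.46 ± 0.376 FPKM at 6d). A 4-coumarate-CoA ligase-like 5 gene (PH02Gene45698) had 7.81 ± 0.431 FPKM at 20d and 38.5 ± 1.62 FPKM at 6d (log2 change -2.16, SE 0.04). Cinnamoyl-CoA reductase 1 (PH02Gene01704), the highest member of the list, was at 918 ± 9.49 FPKM at 20d and 838 ± 16.7 FPKM at 6d and was not called.

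**Figure D4:**
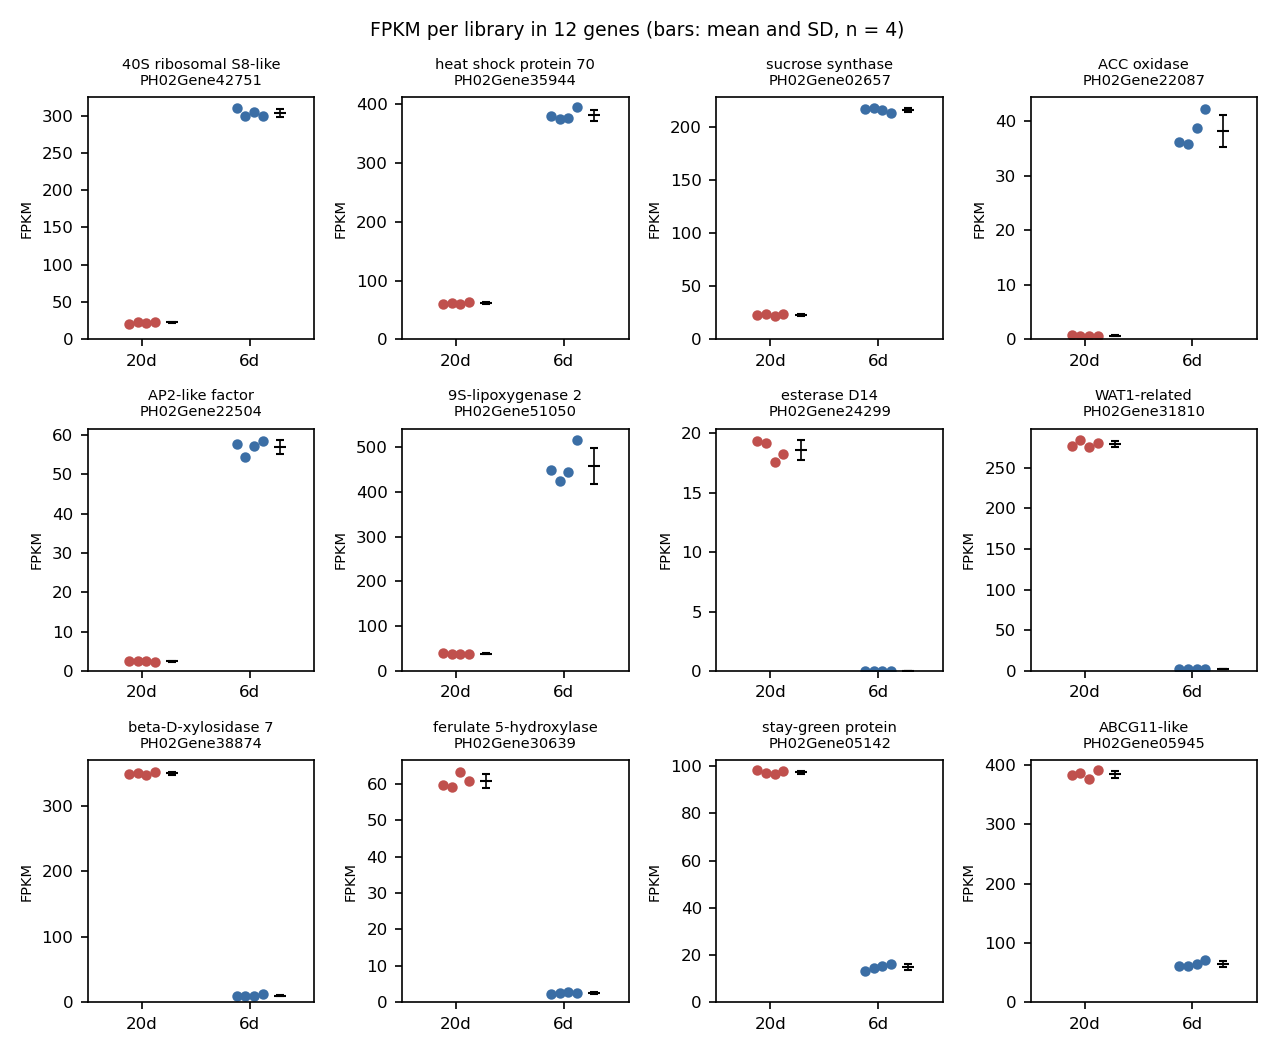
FPKM of each library at 20d (left, red) and 6d (right, blue) in 12 genes, with the mean and SD (n = 4) beside the points; each panel has its own axis from 0. In the first 6 panels the 20d libraries lie below the 6d libraries and in the last 6 above them, with no overlap in any panel.

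Polysaccharide genes of the wall moved both ways. Of 24 cellulose synthase genes 4 (16.7%) rose and 1 fell, with a median of 0.22. A cellulose synthase A 3 gene (PH02Gene49673) had 30.3 ± 0.993 FPKM at 20d and 11.1 ± 0.660 FPKM at 6d (log2 change 1.59, SE 0.03). An A 5 gene (PH02Gene08325) had 76.4 ± 2.04 FPKM at 20d and 36.5 ± 1.18 FPKM at 6d (log2 change 1.20, SE 0.03). Cellulose synthase-like E6 (PH02Gene05971, 17.4 ± 0.367 FPKM at 20d and 4.76 ± 0.264 FPKM at 6d) and H1 (PH02Gene48156, 8.95 ± 0.578 FPKM at 20d and 3.23 ± 0.131 FPKM at 6d), named after their values were seen, also rose. The fall, seen likewise, was in BoCesA7 (PH02Gene13967, 4.80 ± 0.313 FPKM at 20d and 12.5 ± 0.461 FPKM at 6d), named for a gene of another bamboo. Its description does not say which kind of wall it serves. The highest, PH02Gene08830, was at 123 ± 4.29 FPKM at 20d and 84.5 ± 2.69 FPKM at 6d and was not called. Over 4 tested genes taken by name as xylem markers, the sum was 17.4 to 19.1 FPKM per library at 20d and 23.5 to 25.04 FPKM at 6d. They hold that gene and another BoCesA7 gene (PH02Gene35057), and whether these mark xylem was not tested.

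Among 91 xylan genes 23 (25.3%) rose and 12 (13.2%) fell, with a median of 0.42 and a summed level of 1390.0 to 1399 FPKM per library at 20d and 742 to 774.6 FPKM at 6d. Much of the difference in sum was 1 gene: PH02Gene38874, a beta-D-xylosidase 7, which trims xylan in the wall, had 349, 349.6, 346 and 352 FPKM at 20d, against 9.89, 9.67, 10.4 and 12.1 FPKM at 6d (log2 change 5.19, SE 0.08, adjusted p 4.6e-17). A beta-D-xylosidase 2 gene (PH02Gene33530) had 41.9 ± 1.05 FPKM at 20d and 2.23 ± 0.233 FPKM at 6d (log2 change 4.37, SE 0.07). A glucuronosyltransferase that decorates xylan (PH02Gene22390) had 32.4 ± 1.12 FPKM at 20d and 11.2 ± 0.348 FPKM at 6d (log2 change 1.68, SE 0.05). Both lay higher in all 4 libraries at 20d.

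Expansins, which loosen walls for growth, and xyloglucan enzymes, not all of which do, showed 13 rises (25%) and 14 falls (26.9%) among 52. The highest member, xyloglucan endotransglucosylase 1 (PH02Gene05411), had 546, 548, 541 and 542 FPKM at 20d, against 223, 216, 228 and 246 FPKM at 6d (log2 change 1.39, SE 0.03, adjusted p 7.5e-17). The whole list, to which this gene added the most, summed to 1425 to 1473 FPKM per library at 20d and 609 to 677 FPKM at 6d. An expansin 72 gene (PH02Gene06071) had 0.892 ± 0.0836 FPKM at 20d and 9.07 ± 1.13 FPKM at 6d (log2 change -3.20, SE 0.13). A xyloglucan glycosyltransferase 2 (PH02Gene09964) had 49.3 ± 0.945 FPKM at 20d and 26.3 ± 0.787 FPKM at 6d (log2 change 1.05, SE 0.04). Arabinogalactan and fasciclin proteins, sugar-rich proteins of the wall surface, had 3 rises and 3 falls among 17. Fasciclin-like protein 2 (PH02Gene12804) had 19.1 ± 0.474 FPKM at 20d and 1.37 ± 0.0926 FPKM at 6d (log2 change 3.93, SE 0.09). Protein 11 (PH02Gene22926), the highest, had 32.7 ± 1.73 FPKM at 20d and 11.8 ± 1.78 FPKM at 6d (log2 change 1.61, SE 0.09). The third rise was protein 15 (PH02Gene42855, 2.04 ± 0.176 FPKM at 20d and 1.03 ± 0.126 FPKM at 6d), and the falls were 3 genes listed at 0 in all 20d libraries and at 1.08 FPKM or less at 6d (PH02Gene01364, PH02Gene04257 and PH02Gene23882), all named after their values were seen. The call on PH02Gene23882, at 0.114 FPKM at 6d, was lost when any of 6 single libraries, 4 of them at 20d, was left out, at adjusted p of 0.0673 to 0.115 in edgeR's quasi-likelihood test. Pectin enzymes had 12 rises and 17 falls among 66, with a median of 0.02.

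At the surface, 32 of 94 genes (34.0%) for wax, cutin and lipid transfer proteins rose and 25 (26.6%) fell. PH02Gene14140, a 3-ketoacyl-CoA synthase 1 that lengthens wax precursors, had 41.5, 42.2, 41.5 and 40.7 FPKM at 20d, against 5.46, 4.83, 4.88 and 5.60 FPKM at 6d (log2 change 3.14, SE 0.07, adjusted p 2.8e-22). The highest member, the GDSL esterase gene PH02Gene08251, had 1047, 1083, 1077 and 1091 FPKM at 20d, against 419, 414, 445 and 467 FPKM at 6d (log2 change 1.44, SE 0.03, adjusted p 1.7e-18). A second GDSL gene (PH02Gene45444) had 77.4 ± 1.595 FPKM at 20d and 15.5 ± 1.23 FPKM at 6d (log2 change 2.46, SE 0.05). In all 3 the 20d libraries were the higher without overlap. PH02Gene05945, an ABCG11-like transporter and the highest of 116 ABC transporters, had 384, 386, 376 and 391 FPKM at 20d, against 61.97, 61.2, 64.6 and 70.7 FPKM at 6d (log2 change 2.71, SE 0.04, adjusted p 2.7e-20). Its relative in Arabidopsis exports cutin and wax. Of the ABC transporters as a whole 21 (18.1%) rose and 14 (12.1%) fell, with PH02Gene09415, a plastid B 26 member, at 90.7 ± 0.973 FPKM at 20d and 27.4 ± 1.01 FPKM at 6d (log2 change 1.87, SE 0.03) and PH02Gene49072, a C 8 member, at 4.39 ± 0.273 FPKM at 20d and 17.4 ± 0.410 FPKM at 6d (log2 change -1.85, SE 0.04). The 13 tested epidermis markers, themselves wax genes, summed to 88.6 to 94.6 FPKM per library at 20d and 38.6 to 43.7 FPKM at 6d. Whether the share of epidermis differed between the samples was not tested.

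Heat shock genes fell in large number, and DnaJ proteins, chaperonins and cold-response genes moved both ways. Of 80 genes for heat shock proteins and chaperones, which hold and refold proteins, 32 (40.0%) fell and 1 rose, with a median log2 change of -0.86 and a sum of 1041 to 1054 FPKM per library at 20d and 2026 to 2116 FPKM at 6d. PH02Gene35944, a heat shock protein 70 gene, had 60.1, 62.04, 60.2 and 63.3 FPKM at 20d, against 379, 374, 377 and 394 FPKM at 6d (log2 change -2.49, SE 0.02, adjusted p 5.3e-31). PH02Gene11794, a cognate 70 kDa gene, had 38.3 ± 0.231 FPKM at 20d and 127 ± 1.69 FPKM at 6d (log2 change -1.59, SE 0.02). The highest, PH02Gene00168, also a cognate 70 kDa gene, was at 322 ± 5.27 FPKM at 20d and 460.2 ± 23.4 FPKM at 6d and was not called. The 1 rise, named after its values were seen, was a 16.9 kDa class I gene (PH02Gene22220, 14.9 ± 0.534 FPKM at 20d and 6.76 ± 0.631 FPKM at 6d). Among 130 DnaJ proteins and chaperonins, partners of these chaperones, 23 (17.7%) fell and 8 (6.15%) rose. The eta subunit of the cytosolic T-complex (PH02Gene02106) had 8.93 ± 0.808 FPKM at 20d and 46.8 ± 0.941 FPKM at 6d (log2 change -2.25, SE 0.04). Mitochondrial CPN60-1 (PH02Gene46097) had 18.4 ± 0.566 FPKM at 20d and 69.2 ± 3.56 FPKM at 6d (log2 change -1.77, SE 0.04). The highest, a DnaJ homolog (PH02Gene16891), was at 514 ± 2.79 FPKM at 20d and 586 ± 8.58 FPKM at 6d.

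Dehydrins and late embryogenesis abundant (LEA) proteins protect membranes in cold and drought. Of 9 such genes 3 fell and 4 rose. The wheat-type cold acclimation gene WCOR410c (PH02Gene13412), the highest of the list, had 92.2, 94.1, 99.1 and 90.1 FPKM at 20d, against 233, 231, 243 and 243 FPKM at 6d (log2 change -1.20, SE 0.03, adjusted p 2.9e-21). A COR410 dehydrin (PH02Gene01531) had 8.33, 9.01, 8.32 and 7.67 FPKM at 20d, against 47.3, 45.8, 45.6 and 44.8 FPKM at 6d (log2 change -2.32, SE 0.06, adjusted p 3.3e-21). A DHN1-like dehydrin (PH02Gene07648), named after its values were seen, had 47.9 ± 2.29 FPKM at 20d and 244 ± 12.9 FPKM at 6d (log2 change -2.21, SE 0.06). The 4 that rose, named likewise, were a plastid cold-regulated 413 protein (PH02Gene04238, 69.4 ± 3.24 FPKM at 20d and 24.0 ± 1.33 FPKM at 6d), a Lea5-D (PH02Gene23248, 10.7 ± 0.424 FPKM at 20d and 5.19 ± 0.0762 FPKM at 6d), a DHN3 (PH02Gene07646, 23.6 ± 0.530 FPKM at 20d and 7.05 ± 0.213 FPKM at 6d) and another LEA gene (PH02Gene10877, 5.37 ± 0.486 FPKM at 20d and 2.54 ± 0.195 FPKM at 6d). The 3 genes that fell held most of the list's level at 6d, and the list summed to 443 to 463 FPKM per library at 20d and 713 to 756 FPKM at 6d.

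Antioxidant enzymes had 6 rises and 2 falls among 51, below the background in both directions. A phospholipid hydroperoxide glutathione peroxidase (PH02Gene27492) had 326 ± 4.76 FPKM at 20d and 126 ± 2.62 FPKM at 6d (log2 change 1.51, SE 0.02). Catalase B (PH02Gene29448), which destroys hydrogen peroxide in peroxisomes, had 233 ± 2.00 FPKM at 20d and 116 ± 1.32 FPKM at 6d (log2 change 1.14, SE 0.02). The highest, another catalase (PH02Gene05658), was at 492 ± 6.98 FPKM at 20d and 618 ± 44.8 FPKM at 6d and was not called. The 2 falls within this list were in genes under 2 FPKM, a superoxide dismutase 2 (PH02Gene29283) and a plastid glutathione peroxidase (PH02Gene11153), named after their values were seen. The peroxidase was at -0.98 without 20d replicate 4 and at -0.96 without 6d replicate 3. Of 68 glutathione S-transferases, many of which conjugate toxic compounds, 11 (16.2%) rose and 18 (26.5%) fell. A dehydroascorbate reductase DHAR2, PH02Gene34422, was counted in this list and not among the antioxidant enzymes. This gene had 5.98, 5.21, 5.51 and 5.60 FPKM at 20d, against 95.2, 90.6, 93.4 and 100.1 FPKM at 6d (log2 change -3.95, SE 0.04, adjusted p 6.4e-29). PH02Gene50171, F11-like, had 24.3 ± 1.02 FPKM at 20d and 127 ± 7.06 FPKM at 6d (log2 change -2.25, SE 0.04). GSTF1 (PH02Gene33266), the highest, was at 1059 ± 5.72 FPKM at 20d and 729 ± 11.1 FPKM at 6d and was not called.

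Sugar and starch genes moved both ways. Sucrose synthase, which splits sucrose for walls and starch, was the enzyme of the 2 genes with the smallest adjusted p. PH02Gene02657 had 23.4, 23.5, 21.8 and 23.8 FPKM at 20d, against 218, 218, 217 and 214 FPKM at 6d (log2 change -3.09, SE 0.02, adjusted p 4.3e-32). PH02Gene09591 had 2.36, 2.26, 2.12 and 2.36 FPKM at 20d, against 24.9, 26.5, 24.0 and 23.2 FPKM at 6d (log2 change -3.30, SE 0.04, adjusted p 5.9e-27). The 20d libraries of both lay far under those of 6d. Over 76 genes for sucrose, invertase and sugar transport, however, 17 (22.4%) rose and 9 (11.8%) fell, with a median of 0.36. Of 51 starch genes 8 rose and 11 fell, with a median of -0.05. The large subunit of ADP-glucose pyrophosphorylase, which makes the starch precursor, was nearly lost in PH02Gene25500, with 0.859, 0.632, 0.707 and 0.891 FPKM at 20d, against 23.4, 25.8, 24.7 and 24.1 FPKM at 6d (log2 change -4.85, SE 0.07, adjusted p 1.9e-26). Granule-bound starch synthase 1b (PH02Gene37359), which makes amylose, had 4.22 ± 0.481 FPKM at 20d and 34.1 ± 1.17 FPKM at 6d (log2 change -2.88, SE 0.05). The highest member, soluble starch synthase III1 (PH02Gene06030), was at 96.5 ± 1.22 FPKM at 20d and 103 ± 1.26 FPKM at 6d and was not called.

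In 40 genes of raffinose and trehalose metabolism 12 (30.0%) fell and 4 rose. PH02Gene50092, a trehalose-phosphate synthase gene, had 1.27 ± 0.174 FPKM at 20d and 7.32 ± 0.354 FPKM at 6d (log2 change -2.39, SE 0.07). PH02Gene23984, of the same family, had 33.1 ± 0.764 FPKM at 20d and 74.3 ± 1.54 FPKM at 6d (log2 change -1.03, SE 0.03). The highest of the family (PH02Gene21236) was at 138 ± 2.45 FPKM at 20d and 144 ± 5.11 FPKM at 6d and was not called. The 4 rises, named after their values were seen, were further trehalose-phosphate synthases (PH02Gene35385, 24.2 ± 0.340 FPKM at 20d and 5.88 ± 0.413 FPKM at 6d, and PH02Gene07997, 14.1 ± 0.542 FPKM at 20d and 6.66 ± 0.459 FPKM at 6d), a raffinose synthase-type galactosyltransferase (PH02Gene48920, 40.2 ± 1.64 FPKM at 20d and 6.84 ± 0.870 FPKM at 6d) and galactinol synthase 2 (PH02Gene28670, 11.3 ± 1.04 FPKM at 20d and 4.86 ± 0.156 FPKM at 6d). Glycolysis and fermentation genes had 14 falls (18.9%) and 8 rises (10.8%) among 74, close to the background. An enolase-like gene (PH02Gene14126) had 22.0 ± 0.292 FPKM at 20d and 77.3 ± 2.18 FPKM at 6d (log2 change -1.67, SE 0.03), a cytosolic pyruvate kinase 1 (PH02Gene40830) had 184 ± 4.17 FPKM at 20d and 87.9 ± 1.75 FPKM at 6d (log2 change 1.20, SE 0.02), and the highest, a glyceraldehyde-3-phosphate dehydrogenase-type gene (PH02Gene12335), was at 349.9 ± 0.917 FPKM at 20d and 267 ± 7.20 FPKM at 6d.

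Among regulators, NAC factors, several of which drive senescence and secondary walls in other plants, had the largest share of rises of the regulator families given here. Of 77, 24 (31.2%) rose and 5 fell, with a median of 0.20. PH02Gene26525, described as NAC 104, had 332, 329, 322 and 325 FPKM at 20d, against 92.1, 97.0, 97.7 and 95.1 FPKM at 6d (log2 change 1.92, SE 0.03, adjusted p 7.7e-26). A NAC 29-like gene (PH02Gene03448) had 307, 312, 306 and 314 FPKM at 20d, against 138, 141, 144 and 149 FPKM at 6d (log2 change 1.25, SE 0.02, adjusted p 1.8e-24). The highest, another NAC 29-like gene (PH02Gene22100), was at 364 ± 6.60 FPKM at 20d and 504.2 ± 16.4 FPKM at 6d and was not called. The 5 falls, named after their values were seen, were the stress-responsive NAC genes PH02Gene03725 (8.51 ± 0.648 FPKM at 20d and 38.2 ± 2.53 FPKM at 6d) and PH02Gene04473 (13.3 ± 0.783 FPKM at 20d and 59.8 ± 3.16 FPKM at 6d), and NAC 4 (PH02Gene02411), NAC 105 (PH02Gene31803) and NAC 90-like (PH02Gene05393) genes under 2 FPKM at both times. Of 52 WRKY factors, regulators of defence and senescence, 14 (26.9%) rose and 5 fell. WRKY2 (PH02Gene25907) had 84.9 ± 1.13 FPKM at 20d and 45.1 ± 1.52 FPKM at 6d (log2 change 1.05, SE 0.03), WRKY19 (PH02Gene36583) had 9.32 ± 0.285 FPKM at 20d and 2.997 ± 0.181 FPKM at 6d (log2 change 1.77, SE 0.06), and the highest (PH02Gene37557) was at 105 ± 1.58 FPKM at 20d and 98.5 ± 1.19 FPKM at 6d. The falls, seen likewise, were in WRKY13 genes (PH02Gene42220 and PH02Gene29622), a WRKY57 (PH02Gene25488), a WRKY33 (PH02Gene17280) and a WRKY45 (PH02Gene41150). WRKY45 had 0.0396 ± 0.0539 FPKM at 20d and 0.197 ± 0.105 FPKM at 6d and lost its call when 20d replicate 1 or 2 or 6d replicate 3 or 4 was left out, at -1.67 to -1.95.

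Of 76 AP2/ERF factors 15 (19.7%) rose and 20 (26.3%) fell. An AP2-like factor, PH02Gene22504, of a family that keeps young tissue dividing, had 2.58, 2.54, 2.41 and 2.37 FPKM at 20d, against 57.8, 54.6, 57.2 and 58.6 FPKM at 6d (log2 change -4.39, SE 0.05, adjusted p 6.8e-29), so that every 20d library was far below every 6d library. The highest member, the ERF gene PH02Gene38917, had 700.4, 696, 688 and 686 FPKM at 20d, against 317, 300.5, 307 and 307 FPKM at 6d (log2 change 1.31, SE 0.02, adjusted p 3.1e-24). Of 88 MYB factors 22 (25%) rose and 19 (21.6%) fell. MYB4-like (PH02Gene13214), named for a repressor of phenylpropanoid genes in Arabidopsis, had 46.3 ± 0.394 FPKM at 20d and 11.9 ± 0.545 FPKM at 6d (log2 change 2.10, SE 0.05). APL-like (PH02Gene15930) had 23.0 ± 1.15 FPKM at 20d and 4.26 ± 0.298 FPKM at 6d (log2 change 2.57, SE 0.08). The highest MYB-related gene (PH02Gene35341) was at 68.5 ± 15.1 FPKM at 20d and 38.4 ± 8.11 FPKM at 6d, with 1 of the 20d libraries well above the other 3, and was just short of a call (log2 change 0.98, SE 0.15). It was called, at 1.01 to 1.13, when 20d replicate 1, 3 or 4 or 6d replicate 1 was left out.

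Each hormone list held rises and falls, except that of abscisic acid. The ethylene-forming ACC oxidase gene PH02Gene22087 had 0.810, 0.624, 0.679 and 0.576 FPKM at 20d, against 36.1, 35.8, 38.6 and 42.2 FPKM at 6d (log2 change -5.69, SE 0.08, adjusted p 3.5e-26). EIN3-binding F-box protein 1 (PH02Gene13936), which damps ethylene signalling, had 13.3 ± 0.655 FPKM at 20d and 41.6 ± 0.779 FPKM at 6d (log2 change -1.503, SE 0.04). Over 37 ethylene genes 6 fell and 4 rose, and the highest, CTR1 (PH02Gene23355), was at 66.1 ± 1.28 FPKM at 20d and 64.5 ± 2.06 FPKM at 6d. The rises, named after their values were seen, included a second ACC oxidase (PH02Gene21368, 4.92 ± 0.241 FPKM at 20d and 0.859 ± 0.299 FPKM at 6d), ethylene receptor 3 (PH02Gene16274, 40.4 ± 1.11 FPKM at 20d and 21.0 ± 0.912 FPKM at 6d), response sensor 2 (PH02Gene25306, 4.49 ± 0.166 FPKM at 20d and 2.02 ± 0.116 FPKM at 6d) and an EIN3-like 3 (PH02Gene15448, 15.0 ± 0.673 FPKM at 20d and 7.40 ± 0.256 FPKM at 6d). In the jasmonate list 13 (21.7%) fell and 7 (11.7%) rose among 60. Its highest member, the 9S-lipoxygenase 2 gene PH02Gene51050, had 38.97, 38.0, 37.8 and 38.7 FPKM at 20d, against 449, 423, 443 and 516 FPKM at 6d (log2 change -3.44, SE 0.06, adjusted p 1.7e-15). This gene is in the list by the words of its description, and whether it serves jasmonate synthesis was not tested. TIFY 11c (PH02Gene40897), a repressor that jasmonate itself induces, had 149.5 ± 2.21 FPKM at 20d and 44.2 ± 2.11 FPKM at 6d (log2 change 1.90, SE 0.04). TIFY 11d (PH02Gene17761) had 135 ± 4.15 FPKM at 20d and 64.0 ± 4.19 FPKM at 6d (log2 change 1.21, SE 0.04).

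Of 32 abscisic acid genes 6 (18.8%) fell and 0 rose, with a median of -0.40. An ABI5-like 2 bZIP factor (PH02Gene05570) had 5.28 ± 0.214 FPKM at 20d and 27.8 ± 0.709 FPKM at 6d (log2 change -2.25, SE 0.06), the kinase SAPK5 (PH02Gene34223) had 0.575 ± 0.0799 FPKM at 20d and 4.78 ± 0.262 FPKM at 6d (log2 change -2.91, SE 0.10), and the highest, SAPK8 (PH02Gene17789), was at 49.6 ± 1.23 FPKM at 20d and 66.3 ± 1.29 FPKM at 6d. Of 20 gibberellin and brassinosteroid genes 8 (40.0%) rose and 5 (25%) fell. Gibberellin 2-beta-dioxygenase, which inactivates gibberellin, had 43.4 ± 2.40 FPKM at 20d and 8.44 ± 0.696 FPKM at 6d in PH02Gene00807 (log2 change 2.50, SE 0.07). The receptor kinase BRL1 (PH02Gene42834) had 17.6 ± 0.466 FPKM at 20d and 6.34 ± 0.178 FPKM at 6d (log2 change 1.61, SE 0.05). The highest, a gibberellin oxidase (PH02Gene36717), was at 53.8 ± 3.10 FPKM at 20d and 33.5 ± 0.630 FPKM at 6d and was not called. The falls, named after their values were seen, were DELLA genes, repressors of gibberellin responses (PH02Gene13923, 7.34 ± 0.779 FPKM at 20d and 24.97 ± 1.79 FPKM at 6d, and PH02Gene09945, 0.3005 ± 0.0636 FPKM at 20d and 0.715 ± 0.183 FPKM at 6d), BZR1 homolog 1 (PH02Gene17901, 3.34 ± 0.648 FPKM at 20d and 10.9 ± 1.47 FPKM at 6d), a DWARF AND LOW-TILLERING-like gene (PH02Gene14452, 0.156 ± 0.0449 FPKM at 20d and 2.21 ± 0.234 FPKM at 6d) and a gibberellin-regulated protein 2-like gene (PH02Gene16316, 0.192 ± 0.138 FPKM at 20d and 1.63 ± 0.124 FPKM at 6d). The second DELLA gene was at -0.97 without 20d replicate 1 and at -0.94 without 6d replicate 3. Auxin genes had 19 rises (20.4%) and 20 falls (21.5%) among 93. Flavonoid enzymes had 18 rises (36.0%) and 12 falls (24.0%) among 50.

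The 12 largest rises, taken among called genes that averaged 5 FPKM or more over both times and had no overlap and an informative description, held genes of several roles. PH02Gene24299, described as D14, the receptor of strigolactones, hormones that hold back branching, lies on scaffold 21 (100100086 to 100101067). It had 19.3, 19.2, 17.6 and 18.3 FPKM in the 20d libraries and was listed at 0 in all 4 libraries at 6d, at least 179-fold higher at 20d with a floor of 3 fragments over the group. At 0d it had averaged 53.4 FPKM, and at 2d it was listed at 0. PH02Gene31810, a WAT1-related gene, reached the highest level of the 12, with 277, 284, 275 and 281 FPKM at 20d, against 1.98, 2.62, 2.58 and 2.90 FPKM at 6d (log2 change 6.92, SE 0.10, adjusted p 3.9e-17). PH02Gene07723, a DMP2 membrane protein gene, had 199, 201, 224 and 206 FPKM at 20d, against 3.66, 4.55, 5.37 and 3.53 FPKM at 6d (log2 change 5.73, SE 0.12, adjusted p 3.0e-18). Over both genes the 20d libraries ran from 199 to 284 FPKM and the 6d libraries from 1.98 to 5.37 FPKM.

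Wall and defence-related genes among the 12 were a polygalacturonase, which cuts pectin (PH02Gene14642, 20.2 ± 1.53 FPKM at 20d and 0.227 ± 0.133 FPKM at 6d, log2 change 6.52, SE 0.41), a mannan endo-mannosidase 4 (PH02Gene33183, 35.0 ± 0.708 FPKM at 20d and 0.637 ± 0.0644 FPKM at 6d, log2 change 5.91, SE 0.15) and a lectin receptor kinase (PH02Gene37940, 13.5 ± 0.391 FPKM at 20d and 0.0686 ± 0.0492 FPKM at 6d, log2 change 7.65, SE 0.37), beside the laccase-23 and the ferulate 5-hydroxylase PH02Gene30039 given above. A heavy-metal-binding isoprenylated protein (PH02Gene22563) had 35.0 ± 1.64 FPKM at 20d and 0.581 ± 0.183 FPKM at 6d (log2 change 6.03, SE 0.17). An O-methyltransferase (PH02Gene44840) had 13.8 ± 0.928 FPKM at 20d and 0.249 ± 0.193 FPKM at 6d (log2 change 5.90, SE 0.63). Endonuclease 1 (PH02Gene36602), of a class that degrades nucleic acids in dying cells, had 13.2 ± 0.797 FPKM at 20d and 0.271 ± 0.141 FPKM at 6d (log2 change 5.68, SE 0.36). The last, PH02Gene48570, carries a description taken from a mammalian protein and had 34.6 ± 0.933 FPKM at 20d and 0.660 ± 0.174 FPKM at 6d (log2 change 5.84, SE 0.21).

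The 12 largest falls by the same rule held 6 thionins. Among the others, PH02Gene03416, a phospholipid transfer protein 1 gene, was seen in 1 of the 4 libraries at 20d and had 0.0549 ± 0.110 FPKM at 20d and 29.4 ± 1.27 FPKM at 6d, 494-fold lower at 20d with a 95% Clopper-Pearson interval of 155 to 2200.2. PH02Gene28034, for a BURP domain protein of the wall, had 0.645, 0.858, 0.814 and 0.694 FPKM at 20d, against 157, 161, 165 and 177 FPKM at 6d (log2 change -7.62, SE 0.11, adjusted p 1.1e-16). PH02Gene21616, a small cysteine-rich protein LCR69, had 0.378 ± 0.196 FPKM at 20d and 34.3 ± 3.53 FPKM at 6d (log2 change -6.36, SE 0.15). PH02Gene44799, a photosystem II 10 kDa protein, had 0.153 ± 0.166 FPKM at 20d and 14.2 ± 0.949 FPKM at 6d (log2 change -6.25, SE 0.27). Each of these was under 1 FPKM in every 20d library. The remaining pair rests on uneven libraries. PH02Gene51440, a cysteine synthase gene, was listed at 0 in all 20d libraries and had 15.4, 0.884, 30.7 and 28.4 FPKM in the 6d libraries. Its call was lost when any library but 6d replicate 1 or 2 was left out, at adjusted p of 0.0504 to 0.0540 in edgeR's quasi-likelihood test. PH02Gene51447, a beta-cyanoalanine synthase of the same protein family, had 0.0825 ± 0.0772 FPKM at 20d and 12.5 ± 6.15 FPKM at 6d, with replicate 4 of 6d well below the others.

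At the extremes, 42 genes were listed at 0 counts in all 4 libraries at 20d and averaged at least 1 FPKM at 6d, and 3 genes showed the opposite. Besides D14, the 3 were a cullin gene (PH02Gene33016, 11.8 FPKM at 20d), which was too uneven to be called, and a gene for a hypothetical protein (PH02Gene07254, 1.32 FPKM at 20d), both named after their values were seen.

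The late step was also set beside the first step of storage, 2d against 0d, which uses none of its libraries. There 7762 genes were called, 3258 (13.1%) higher and 4504 (18.1%) lower at 2d. Of the 3163 genes that rose between 6d and 20d, 441 (13.9%) had risen in the first step, which is 13.5% of the early rises. A larger share, 1173 (37.1%), had fallen in the first step, which is 26.04% of the early falls. Of the 3545 late falls, 698 (19.7%) had been early rises, 21.4% of these, and 874 (24.7%) had been early falls, 19.4% of these. The order of these 2 counts turned among genes that averaged 1 FPKM or more over 6d and 20d, where 632 late falls had been early rises and 460 had been early falls. Across genes the log2 changes of the steps gave a Pearson r of -0.03. Genes are not independent replicates, and the value is a description over 24944 genes.

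The counts of some lists in both steps follow. A gene that passed the limit for testing only through its level at 0d had to be lower at 2d. Early falls in such lists are thus in part fixed by the choice of genes tested, while the order of 6d and 20d is not. This bears on the photosystem list, which had 44 falls among 55 at 2d against 0d and 39 at 20d against 6d. With the limit set on 6d and 20d, which tests another set of members, 16 falls were called at 20d against 6d. Cytosolic ribosomal proteins had 4 falls and 3 rises among 277 in the first step and 166 falls in the late one. The step between, from 2d to 6d, is not in these counts, and over it their mean sum went from 16977 FPKM to 11202 FPKM. Heat shock genes had 53 and 32 falls among 80 in the first and the late step. Expansins and xyloglucan enzymes had 35 falls and 2 rises among 52 in the first step, and 14 falls and 13 rises in the late one. How many heat shock, expansin and xyloglucan genes passed the limit only through 0d was not counted. For thionins all 7 genes were higher at 2d than at 0d and all 7 were lower at 20d than at 6d. Among laccases 6 of 14 had fallen in the first step and 9 rose in the late one. These counts are given side by side, and the difference between the steps was not tested.

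**Figure D5:**
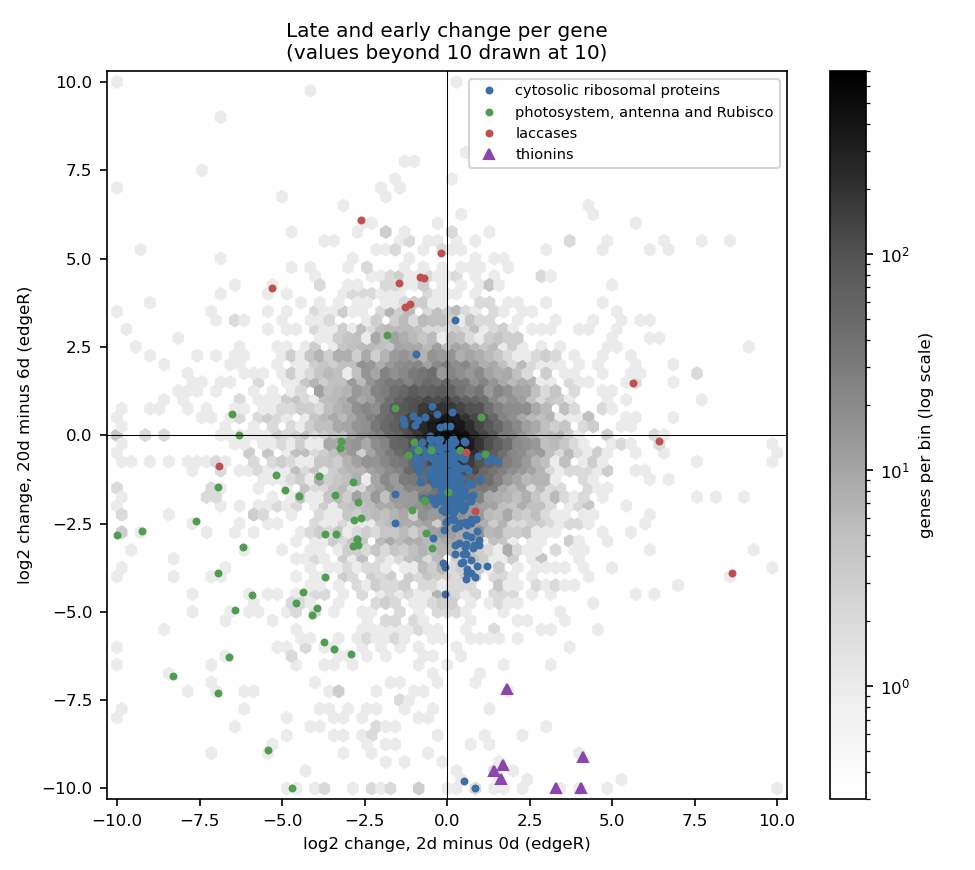
Each gene's log2 change at 2d against 0d (x axis) and at 20d against 6d (y axis), as shaded hexagons for all 24944 genes and coloured points for 4 groups; values beyond 10 are drawn at 10. Cytosolic ribosomal genes lie around 0 on the x axis and mostly below 0 on the y axis (median -1.30), thionins lie to the lower right, and most laccases lie above 0.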

How the data were processed

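RNA of 16 pooled shoot samples was sequenced on an Illumina NovaSeq, per the labels' protocols. The authors deposited 1 table with an estimated count and an FPKM for each of 50936 genes and each library, per the file headers. The sources used here do not name the aligner, genome build, strand setting or counter. The counts are whole numbers, and 35.2% of those from 1 to 19 are multiples of 4. On this basis 4 counts were taken as 1 fragment, which the sources used here do not state. The chi-square values, the bounds with a floor and the Clopper-Pearson intervals rest on that choice. An FPKM of 0, deposited as 0.0001, was set to 0.

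Column names matched the sample descriptions and titles. The quasi-likelihood test of edgeR 4.0.16, run in R 4.3.3 with TMM factors, was applied to the counts. All 16 libraries were fitted as 4 times, so that they share 1 estimate of spread, and the contrast was 20d minus 6d. The 24944 genes that averaged 1 FPKM or more across the 16 libraries entered. Adjusted p-values are Benjamini-Hochberg values over all of them, from a two-sided test. A gene was called at an adjusted p below 0.05 and a log2 change of at least 1 in size. In data simulated at the mean levels of the 24944 genes, 98% of genes changed by 2 on the log2 scale were called, 50% of those changed by 1, and 0 unchanged genes. The simulation set the spread by a fixed formula, used counts divided by 4 and changed 50 genes per size. It does not measure how often the test is right at the spread of the real libraries. Alternatives used DESeq2 1.42.0, limma 3.58.1 on log2(FPKM + 1, 0.1 or 5), other scalings and filters, a replicate block and each library left out.

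Gene lists hold genes whose deposited description matches fixed words. Members and lists were chosen with earlier results of these data known, and lists are counted, not tested. Named are the 12 largest rises and falls among called, described genes that averaged 5 FPKM or more over 6d and 20d without overlap. In each list described, the 2 called members of smallest adjusted p and the member of highest mean FPKM are named; genes outside this rule are marked as chosen after their values were seen. Where a group had 0 counts, a bound used 3 fragments (12 counts) over the group. This floor, and the 95% Clopper-Pearson interval where a group had 1 to 3 fragments, cover counting error only. Libraries of a time came from separate repeats of pooled shoots, and no pair of them agreed within counting noise on average.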

Additional observations from a re-analysis of the deposited data

Results flagged for a closer look

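In 32 of 490 sets of 4 libraries of a named gene at 1 time (6.53%), 1 library lay so far from the other 3 that its gap, as a share of the whole range, passed Dixon's 95% critical value for 4 samples. About 1 set in 20 is expected to do so by chance. Of these, 7 were in replicate 4 of 6d, the library that also differed most from its replicates over all genes, and the others were spread over 7 libraries. All values are FPKM. Replicate 1 of 20d stood above the other 3 libraries in PH02Gene00807 (47.0), PH02Gene13923 (8.504), PH02Gene21616 (0.669) and PH02Gene38791 (32.8) and below them in PH02Gene13936 (12.3). Replicate 2 of 20d stood above the other 3 libraries in PH02Gene29448 (236) and PH02Gene41089 (2.58) and below them in PH02Gene23801 (0.316), PH02Gene25877 (1.20) and PH02Gene50171 (22.8). Replicate 3 of 20d stood above the other 3 libraries in PH02Gene19014 (81.5) and PH02Gene28215 (0.310) and below them in PH02Gene33184 (1.49). Replicate 4 of 20d stood above the other 3 libraries in PH02Gene03416 (0.220) and PH02Gene34137 (1.86) and below them in PH02Gene05570 (4.96), PH02Gene20677 (0.681), PH02Gene23403 (53.2) and PH02Gene36977 (142). Replicate 1 of 6d stood below the other 3 libraries in PH02Gene23321 (4.13). Replicate 2 of 6d stood below the other 3 libraries in PH02Gene07648 (225) and PH02Gene28215 (15.8). Replicate 3 of 6d stood above the other 3 libraries in PH02Gene16891 (598), PH02Gene17901 (13.1) and PH02Gene45392 (0.276). Replicate 4 of 6d stood above the other 3 libraries in PH02Gene03725 (42.0), PH02Gene17761 (70.3), PH02Gene19014 (43.3) and PH02Gene25011 (667) and below them in PH02Gene02106 (45.4), PH02Gene03145 (31.5) and PH02Gene25300 (41.3). Every gene with such a library that is described as called kept its direction when that library was left out.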

How the results depend on the processing

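The number of genes called was 6708, and most choices moved it little: it was 6697 with DESeq2, 6690 with median-of-ratios factors, 6694 with upper-quartile factors, 6657 with only the 6d and 20d libraries fitted and 6719 with counts divided by 4. Scaling by total counts called 2625 genes higher and 4128 lower, and it moved the median of all genes by -0.13. Leaving out 1 library, or 1 replicate number at every time, gave 6628 to 6714 genes, 3131 to 3172 higher and 3491 to 3560 lower.

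The filter on low values and the pseudocount mattered most. Limma on log2(FPKM + 1) called 1890 higher, and on log2(FPKM + 5) it called 1859 genes, 904 higher and 955 lower; added values shrink the changes of low genes by construction. With no filter 5505 genes were lower, of which 1077 had been higher and 1371 lower at 2d against 0d. At an average of 5 FPKM or more, which tests fewer genes, 3449 were called, 1664 higher and 1785 lower; of the rises 493 had been lower and 236 higher at 2d against 0d, and of the falls 315 had been higher and 335 lower. Among genes averaging 1 FPKM or more over 6d and 20d, 3021 were higher and 2948 lower, so falls were no longer the larger count. Of these falls 632 had been higher and 460 lower at 2d against 0d. Of 245 named genes 150 kept both direction and side of the limits in all 25 alternatives. The genes that turned were 3 uncalled ones near 0. PH02Gene03145 was at -0.018, -0.018 and -0.016 with limma at 1, 0.1 and 5, and at -0.010 with total counts. PH02Gene06030 was at -0.095, -0.096 and -0.091 with limma at 1, 0.1 and 5, at -0.088 with total counts and at -0.0076 with upper-quartile factors. PH02Gene21236 was at -0.064, -0.064 and -0.062 with limma at 1, 0.1 and 5, and at -0.057 with total counts. Beyond shrinkage and fewer genes tested, the cause was not tested.

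Replicate numbers 1 to 4 recur at each time. Deviations of same-numbered libraries from their time's mean correlated at -0.11, -0.09, 0.14 and -0.05 over 10752 genes, and no 20d library but replicate 3 correlated best with its own number, so the numbers were not taken as pairs. With a replicate block 6695 genes were called, 3161 higher and 3534 lower. Genes of a few fragments limit the precision of the lowest lists, and the pooling of shoots hides variation between them.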

Other observations

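Water channels moved both ways. Among 16 aquaporins 3 rose and 3 fell, with a median log2 change of 0.42. PIP1-1, a channel of the plasma membrane, rose in PH02Gene26718, with 90.6 ± 1.28 FPKM at 20d and 42.0 ± 1.80 FPKM at 6d (log2 change 1.25, SE 0.03), and fell in PH02Gene43726, with 0.799 ± 0.194 FPKM at 20d and 9.41 ± 0.622 FPKM at 6d (log2 change -3.42, SE 0.12). The highest member, also a PIP1-1 gene (PH02Gene00514), was at 209 ± 10.6 FPKM at 20d and 155 ± 9.58 FPKM at 6d and was not called. The other called members, named after their values were seen, were a PIP-type gene (PH02Gene23321, 14.1 ± 0.550 FPKM at 20d and 4.93 ± 0.533 FPKM at 6d) and NIP3-1 (PH02Gene10399, 1.42 ± 0.245 FPKM at 20d and 0.426 ± 0.117 FPKM at 6d), which rose, and the vacuolar TIP1-1 (PH02Gene03621, 41.4 ± 1.95 FPKM at 20d and 91.5 ± 6.84 FPKM at 6d) and NIP1-1 (PH02Gene20677, 1.06 ± 0.253 FPKM at 20d and 4.33 ± 0.339 FPKM at 6d), which fell. TIP1-1 lay at the limit of 1 and was not called, at -0.95 to -0.999, when 20d replicate 1, 3 or 4 or 6d replicate 4 was left out.

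Membrane lipid genes showed 10 rises and 5 falls among 69, with a median of 0.23. Phospholipase D alpha 1, which cuts membrane phospholipids to phosphatidic acid, fell in PH02Gene27382, with 8.55 ± 0.297 FPKM at 20d and 30.2 ± 0.621 FPKM at 6d (log2 change -1.68, SE 0.03), and in PH02Gene10648, with 31.0 ± 0.966 FPKM at 20d and 84.0 ± 0.840 FPKM at 6d (log2 change -1.30, SE 0.03). The highest member, a delta(8)-fatty-acid desaturase (PH02Gene30788), was at 122 ± 1.43 FPKM at 20d and 152 ± 5.24 FPKM at 6d and was not called. The other falls, named after their values were seen, were a plastid omega-6 desaturase (PH02Gene20531), a further phospholipase D (PH02Gene29809) and a diacylglycerol kinase 5 (PH02Gene24969). Other phospholipases rose, among them a non-specific phospholipase C1 (PH02Gene33172, 130.1 ± 3.39 FPKM at 20d and 45.1 ± 1.59 FPKM at 6d) and a phospholipase A(1) (PH02Gene04694, 98.1 ± 2.49 FPKM at 20d and 36.7 ± 0.810 FPKM at 6d), likewise named after their values were seen. Of 35 clock and photoreceptor genes 2 rose and 1 fell. They were a PHYTOCHROME INTERACTING FACTOR-LIKE 13-like gene (PH02Gene23403, 56.1 ± 1.90 FPKM at 20d and 7.79 ± 0.617 FPKM at 6d, log2 change 2.98, SE 0.09), a REVEILLE 6-like gene (PH02Gene31811, 28.02 ± 1.21 FPKM at 20d and 14.9 ± 1.20 FPKM at 6d) and an adagio-like gene (PH02Gene02722, 12.6 ± 0.735 FPKM at 20d and 29.1 ± 1.21 FPKM at 6d), the last 2 named after their values were seen, while the highest member, cryptochrome-2 (PH02Gene40436), was at 99.9 ± 1.80 FPKM at 20d and 175 ± 8.86 FPKM at 6d.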
